A study of Mus musculus with 6 samples.

Results

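The genes described here were 10 components of the Notch pathway, namely Notch1, Notch2, Adam10, Lfng, Mfng, Rbpj, Maml1, Dtx1, Hes1 and Nrarp, out of 55421 genes in the deposited RNA-seq table. They were found by gene symbol, and all 10 were among the 17640 genes whose normalized counts averaged 10 or more. The set was chosen around the measured fall of Dtx1 in hnRNPL-deficient B cells, so the values of the 10 genes in that same contrast are given as a description, without p-values. The question was whether other Notch genes followed Dtx1.

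The samples were splenic B cells of mice activated in culture for 24 h with LPS at 5 ug/ml and IL-4 at 5 ng/ml. The control group (WT, 3 libraries) came from CD21-cre mice and the hnRNPL-deficient group (KO, 3 libraries) from hnRNPL F/F CD21-cre mice. Both groups therefore carried the Cre, which is driven by regulatory sequences of Cr2 (CD21) and acts in mature B cells. According to the study's methods both also carried the Rosa mT/mG reporter, naive B cells were purified before culture, and GFP+ cells, in which Cre had acted on the reporter, were sorted. The mice were male and female C57BL6/J animals older than 6 weeks, and the replicates were individual mice. hnRNPL is an RNA-binding protein of the nucleus with roles in splicing and in the stability of transcripts.

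Notch receptors sit at the cell surface and are activated by ligands on neighbouring cells. Fringe enzymes (Lfng, Mfng) extend sugars on the receptor and change which ligands it responds to. After ligand binding, Adam10 and then the gamma-secretase complex cut the receptor, and its freed intracellular part enters the nucleus, where it joins the DNA-binding protein Rbpj and a Mastermind coactivator such as Maml1. Hes1, Nrarp and Dtx1 are classical target genes: Hes1 encodes a transcriptional repressor, Nrarp a feedback inhibitor of the nuclear complex, and Dtx1 (Deltex 1) a ubiquitin ligase that binds the receptor's intracellular part. In the spleen, Notch2 signalling is required for marginal zone B cells.

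The libraries held 40395186 to 75180749 reads on genes, fewest in KO3. Hnrnpl, the targeted gene, was counted at 24371, 25580 and 24174 (normalized) in WT and at 2178, 1519 and 1297 in KO, 6.74% of the WT mean (log2 fold change -3.93, limma adjusted p = 2.2e-05). B cell identity was checked on 6 markers, whose summed normalized counts were 274249 to 350783 in WT and 266462 to 312659 in KO. Pax5 was the highest of them, at 130876 to 204678 in WT and 131038 to 189706 in KO. KO3 was the lowest KO library for 8 of the 10 Notch genes, against 41.1% of all genes tested, so each gene's value without it is given. The part of depth or of this library in those values was not tested.

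Dtx1 had the largest difference of the 10 genes. Dtx1 (ENSMUSG00000029603.15; mm10 chr5:120680202-120711927, minus strand) had normalized counts of 2401, 2713 and 3171 in WT1, WT2 and WT3 and of 705, 905 and 567 in KO1, KO2 and KO3. Every KO library lay below every WT library, and the highest KO value was well under the lowest WT value. The means were 2762 ± 387 in WT and 726 ± 170 in KO (SD, n = 3 each), so hnRNPL-deficient cells held 26.3% of the WT level. The log2 fold change was -1.94 (SE 0.183, 95% interval -2.36 to -1.53), and without KO3 it was -1.78. Since these are bulk libraries, fewer cells expressing a gene and less of its RNA per cell cannot be told apart, for Dtx1 and for every gene that follows.

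The fall of Dtx1 was not shared by the tested genes beside it on chromosome 5. Rasal1, 0.605 kb away on the opposite strand, had means of 441 ± 94.5 in WT and 438 ± 99.5 in KO (log2 fold change -0.01, limma adjusted p = 0.979). Oas2, 18.4 kb away on the other side, had means of 663 ± 157 and 523 ± 229 (log2 fold change -0.43, limma adjusted p = 0.466). For both neighbours the KO and WT libraries overlapped. No annotated gene overlapped Dtx1.

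Among the receptor-modifying enzymes, Lfng (lunatic fringe; chr5:140607320-140615545, plus strand) was lower in KO. Its normalized counts were 2020, 1989 and 1917 in WT and 1303, 1283 and 929 in KO. The WT libraries lay close together and all KO libraries lay below them. The mean fell from 1976 ± 53.0 to 1172 ± 210 (SD, n = 3 each), 40.7% below WT, with a log2 fold change of -0.77 (SE 0.145, 95% interval -1.10 to -0.44). Without KO3 it was -0.61.

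Mfng (manic fringe; chr15:78755882-78773475), the related enzyme, had 1137, 1560 and 1443 normalized counts in WT and 997, 1405 and 916 in KO. The groups overlapped, since KO2 lay above WT1. The log2 fold change was -0.33 (SE 0.188, 95% interval -0.76 to 0.10), and -0.21 without KO3. The interval includes 0 and does not exclude a fall close to that of Lfng. Rfng (radical fringe), from the wider pathway list, had means of 1619 ± 259 and 1400 ± 283 with overlapping libraries (log2 fold change -0.22, limma adjusted p = 0.480).

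**Figure D1:**
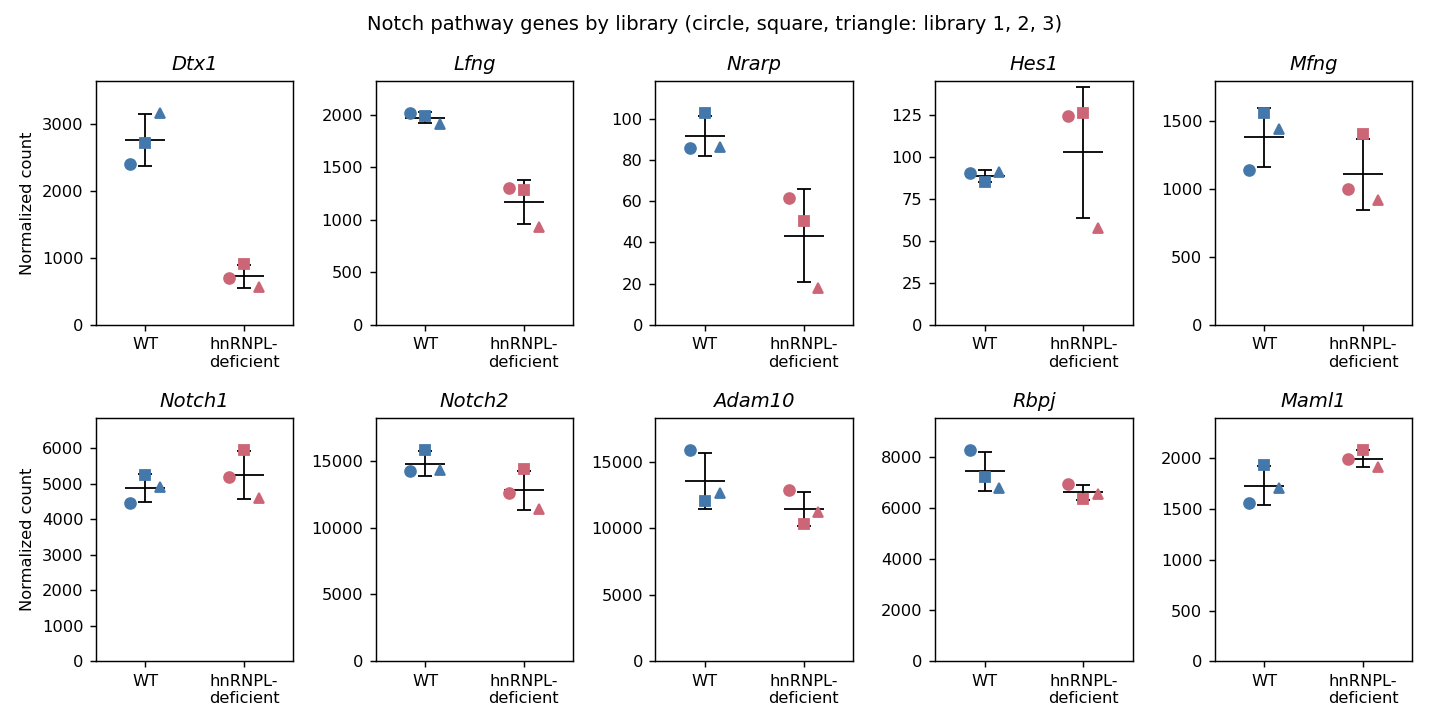
Normalized counts of the 10 Notch genes (vertical axes from 0, a separate scale for each gene) in the 3 WT libraries (blue) and the 3 hnRNPL-deficient libraries (red), with the mean and SD in black. KO libraries lay below all WT libraries for Dtx1, Lfng and Nrarp, and the groups overlapped for the other 7 genes.

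The other target genes did not give a single picture. Nrarp (chr2:25180758-25183339) was low, with normalized counts of 85.9, 103 and 86.4 in WT and 61.3, 50.5 and 17.8 in KO. All KO libraries were below all WT libraries, but KO3 was far below the other KO libraries. That value rested on 13 reads, for which the exact Poisson 95% interval was 9.49 to 30.5 normalized counts (counting error only), whereas KO1 had 68 reads and WT1 had 74. The log2 fold change was -1.24 (SE 0.436, 95% interval -2.23 to -0.24) with all libraries and -0.71 without KO3, so its size depended on that library.

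Hes1 (chr16:30064384-30067796) was expressed at a similar low level and did not fall in a consistent way. It had 90.5, 84.7 and 91.0 normalized counts in WT and 124, 126 and 57.6 in KO, so KO1 and KO2 lay above and KO3 below the narrow WT range. The log2 fold change was 0.12 (SE 0.325, 95% interval -0.62 to 0.86), 0.49 without KO3 and -0.07 without KO2. Hes5, a related repressor from the wider list, had 61.5, 149 and 107 in WT and 76.6, 84.8 and 53.5 in KO (log2 fold change -0.49, limma adjusted p = 0.409).

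The promoters of Lfng and Nrarp are shown as a contrast: both genes were lower in all KO libraries, and only Lfng's promoter holds the letters searched here. Dtx1 was also lower in all KO libraries, and its window, not shown, held no match. The search was for TGGGAA on either strand, the core of the sequence that Rbpj binds. It covered the 250 bases before each gene's RefSeq start (build GRCm38.p6, the same as mm10). For Dtx1, Notch1 and Rbpj these windows lay inside the gene positions printed in this report, which come from another annotation. Matches are in capitals; the sequences run 5′ to 3′ on the gene's strand, chr5:140607091-140607340 (plus) for Lfng and chr2:25180508-25180757 (plus) for Nrarp:

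Lfng: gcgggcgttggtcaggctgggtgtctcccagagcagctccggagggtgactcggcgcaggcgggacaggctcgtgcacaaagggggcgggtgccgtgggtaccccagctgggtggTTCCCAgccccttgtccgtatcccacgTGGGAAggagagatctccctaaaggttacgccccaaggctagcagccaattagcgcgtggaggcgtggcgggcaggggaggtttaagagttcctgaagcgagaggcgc

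Nrarp: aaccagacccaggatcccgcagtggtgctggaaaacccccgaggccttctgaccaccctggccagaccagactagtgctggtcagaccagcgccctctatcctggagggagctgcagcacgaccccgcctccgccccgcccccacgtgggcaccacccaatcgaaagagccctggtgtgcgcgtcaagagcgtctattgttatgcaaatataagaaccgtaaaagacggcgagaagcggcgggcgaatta

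The Lfng window held 2 matches, whose first bases lie 108 and 135 bases before the start, the nearer as part of the longer form CGTGGGAA and the farther on the other strand. The core letters on either strand were in 7094 of 32851 promoter windows of the same length (21.6%) and CGTGGGAA, which contains it, in 0.636%. RefSeq windows were matched for 8 of the 10 genes (not for Hes1 and Mfng). Of these, Lfng and Rbpj held TGGGAA, and Dtx1, Nrarp, Notch1, Notch2, Maml1 and Adam10 did not. A match is no evidence of binding, and a window without one says nothing about sites elsewhere.

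For both receptor genes the groups overlapped. Notch1 (chr2:26457903-26516663) had 4461, 5253 and 4914 normalized counts in WT and 5186, 5957 and 4607 in KO, with overlapping groups and a log2 fold change of 0.10 (SE 0.120, 95% interval -0.17 to 0.38; 0.19 without KO3). Notch2 (chr3:98013527-98150361) had 14252, 15829 and 14264 in WT and 12560, 14343 and 11409 in KO. KO1 and KO3 lay below all WT libraries and KO2 between WT3 and WT2, for a log2 fold change of -0.22 (SE 0.110, 95% interval -0.47 to 0.04; -0.14 without KO3). For both receptors the interval excluded a fall as large as 1.5-fold. Gm42819 and Gm42820, annotated on the same strand inside Notch2, held at most 522 and 323 normalized counts in any library, beside at least 11409 for Notch2.

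Adam10 (chr9:70678997-70780229), the protease that makes the first ligand-dependent cut, had 15937, 12090 and 12659 normalized counts in WT and 12889, 10345 and 11205 in KO. The groups overlapped because KO1 lay above WT2 and WT3. The log2 fold change was -0.24 (SE 0.133, 95% interval -0.54 to 0.07; -0.22 without KO3).

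For both genes of the nuclear complex the WT and KO libraries overlapped. Rbpj (chr5:53466152-53657362) had 8274, 7205 and 6790 normalized counts in WT and 6913, 6353 and 6534 in KO (log2 fold change -0.17, SE 0.103, 95% interval -0.40 to 0.07, -0.16 without KO3), and KO1 lay above WT3. Maml1 (chr11:50255634-50292311) had 1552, 1928 and 1705 in WT and 1986, 2082 and 1912 in KO (log2 fold change 0.21, SE 0.114, 95% interval -0.05 to 0.47, 0.24 without KO3), and KO3 lay just under WT2. For both, the 95% interval lay within 1.5-fold in either direction.

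Gm26542, a gene annotated on the strand opposite to Maml1, was named after its values were seen. It had 16.2, 20.8 and 16.8 normalized counts in WT and 101, 94.9 and 82.2 in KO (log2 fold change 2.31, limma adjusted p = 0.0019), with no overlap between groups. The study counted reads by strand, so these reads were assigned separately from those of Maml1.

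**Figure D2:**
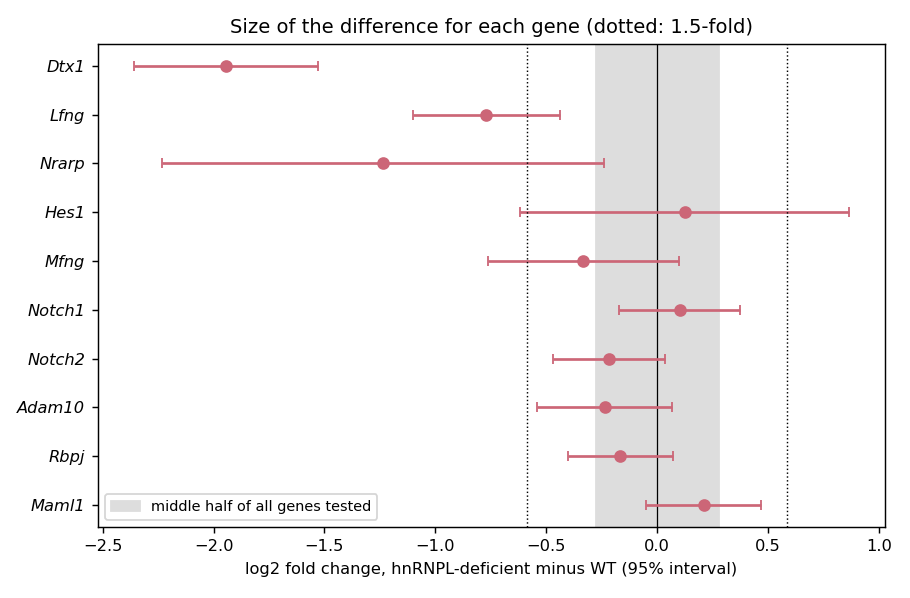
Log2 fold change (KO minus WT, horizontal axis) of each Notch gene with its 95% interval, 3 libraries a group. The grey band spans the quartiles of all 17640 genes tested, -0.28 to 0.28, and the dotted lines mark 1.5-fold; Dtx1, Nrarp, Lfng and Mfng lay left of the band, and Nrarp and Hes1 had the widest intervals.

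A gene was called where the limma adjusted p was under 0.1 and the change at least 1.5-fold, the study's own thresholds. By that rule 2 of the 10 genes, Dtx1 and Lfng, were called lower and 0 higher, beside 4.08% called lower and 7.28% called higher of all genes tested. All KO libraries lay below all WT libraries for 3 of the 10 genes and above for 0, beside 16.3% and 17.7% of all genes tested. Because the set was selected on this contrast, nothing is read from these shares. The log2 fold change was negative for 7 of the 10 genes, and its median was -0.23 against -0.03 for all genes tested.

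Levels per kilobase of exon compare genes of different length. The length used was that of all annotated exons of a gene, all isoforms together, which can exceed that of any transcript. For Rbpj it was 12.75 kb, whereas the longest coding transcript has 5485 bases, so the order below depends on this choice. In WT cells Adam10 had the highest level (2760 normalized counts per kb), followed by Notch2 (1371), Lfng (789), Rbpj (582), Dtx1 (524), Mfng (486), Notch1 (343) and Maml1 (313). Hes1 (43.6) and Nrarp (35.5) were lowest. The order of neighbours such as Rbpj, Dtx1 and Mfng rests on differences close to or below the spread of their libraries. In KO cells the Dtx1 level was 138 normalized counts per kb, under that of Maml1 in WT.

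Ratios taken within a library do not depend on how libraries were scaled. The pairs were chosen after the values were seen and have no test. The Dtx1 to Notch2 ratio was 0.187 in WT and 0.0563 in KO on average, so Dtx1 was lower also relative to the most abundant receptor gene. The Notch2 to Notch1 ratio was 3.19, 3.01 and 2.90 in WT and 2.42, 2.41 and 2.48 in KO, or 3.04 ± 0.148 and 2.44 ± 0.0363 (SD, n = 3 each). These did not overlap, although each receptor's own groups did. Per kilobase of exon, all isoforms together (10.782 kb for Notch2, 14.232 kb for Notch1), the mean ratio was 4.01 in WT and 3.21 in KO. The longest coding transcripts have 10500 bases for Notch2 and 9488 for Notch1. A correction by those lengths would lower the ratio instead of raising it, so the size of the ratio per kilobase depends on the length used. The Lfng to Mfng ratio was 1.46 ± 0.275 in WT and 1.08 ± 0.204 in KO, with overlapping libraries.

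**Figure D3:**
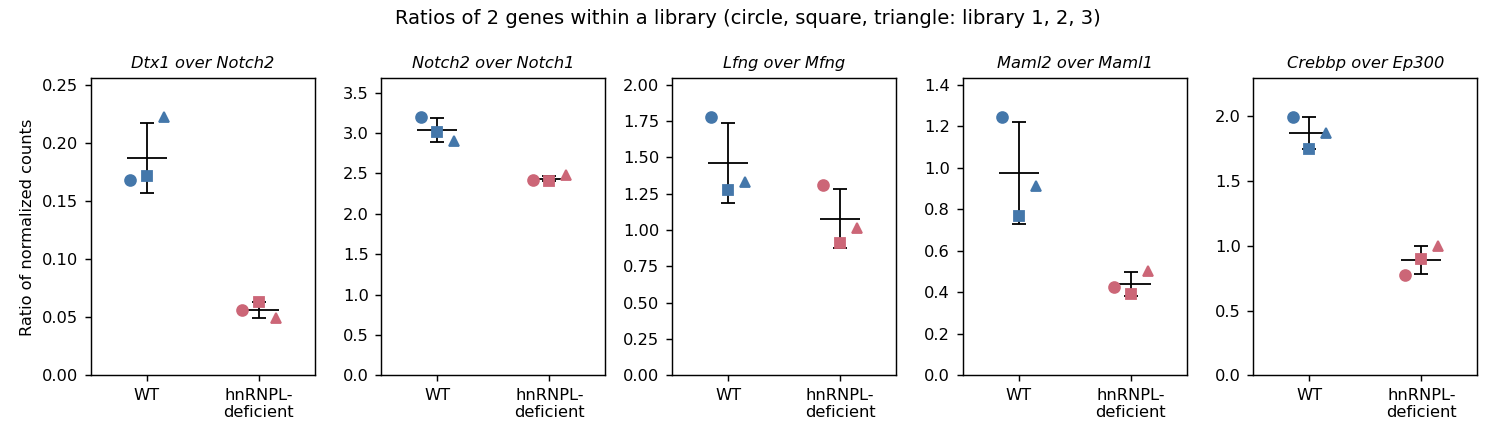
Ratios of the normalized counts of 2 genes within each library (vertical axes from 0), WT in blue and hnRNPL-deficient in red, with mean and SD in black. KO ratios lay below all WT ratios for Dtx1 over Notch2, Notch2 over Notch1, Maml2 over Maml1 and Crebbp over Ep300, and overlapped for Lfng over Mfng.

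To place the 10 genes in their pathway, 70 other pathway genes were grouped by role. Of these, 59 were tested, 4 were called lower (6.78%), 3 higher (5.08%) and 52 not called, shares close to the 4.08% and 7.28% of all genes. Their median log2 fold change was 0.07. All KO libraries lay above all WT libraries for 17 of the 59 (28.8%) and below for 7 (11.9%), beside 17.7% and 16.3% of all genes tested.

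Coactivators held 2 of the 4 genes called lower. Crebbp (CBP), a histone acetyltransferase of the Notch transcription complex and of many others, had 31075, 29305 and 30368 normalized counts in WT and 13293, 15727 and 16775 in KO. No libraries overlapped, and the log2 fold change was -0.99 (SE 0.109, limma adjusted p = 0.0015). Its close relative Ep300 (p300) had 15582, 16783 and 16201 in WT and 17117, 17553 and 16837 in KO (log2 fold change 0.09, limma adjusted p = 0.558). The Crebbp to Ep300 ratio accordingly went from 1.87 ± 0.124 to 0.890 ± 0.110.

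The Mastermind family also differed among its members. Maml2 had 1931, 1479 and 1555 normalized counts in WT and 848, 818 and 962 in KO (log2 fold change -0.91, SE 0.137, limma adjusted p = 0.0053), while Maml1 lay slightly higher and Maml3 had a log2 fold change of -0.21 (limma adjusted p = 0.478). The Maml2 to Maml1 ratio was 0.975 in WT and 0.441 in KO. The remaining coactivators, among them Kat2a (-0.23), Cdk8 (-0.29) and Snw1 (0.16), were not called. For Kat2a all KO libraries lay below all WT libraries, and for Cdk8 and Snw1 the groups overlapped.

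The Deltex family was split as well. Dtx4, a ubiquitin ligase related to Dtx1, had 426, 416 and 437 normalized counts in WT and 297, 276 and 218 in KO (log2 fold change -0.70, SE 0.167, limma adjusted p = 0.031), a call that was lost without WT3 or without KO3. Dtx2, Dtx3 and Dtx3l had log2 fold changes of 0.14, 0.52 and 0.26 and were not called. Dtx3 had 202, 301 and 272 normalized counts in WT and 354, 402 and 347 in KO, without overlap. The libraries of Dtx2 and Dtx3l overlapped. Dtx1 exceeded Dtx4 by 6.47-fold in WT and 2.75-fold in KO. The other trafficking and turnover genes, Numb, Numbl, Itch, Nedd4, Fbxw7 and Aak1, lay between -0.33 and 0.26 and were not called. For Numb, Itch and Fbxw7 all KO libraries lay above all WT libraries. Over the 10 trafficking and turnover genes this held for 4 (40%), and 1 lay below (10%), beside 17.7% and 16.3% of all genes tested.

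In the list for ligand ubiquitination, Neurl3, a member of the Neuralized family, had 453, 398 and 385 normalized counts in WT and 221, 186 and 213 in KO (log2 fold change -0.99, SE 0.161, limma adjusted p = 0.0072). Whether Neurl3 acts on Notch ligands was not tested. Mib1, the main ubiquitin ligase of Notch ligands in many tissues, was not called. Its log2 fold change was -0.25 (limma adjusted p = 0.142), with all KO libraries below all WT libraries. Mib2 and Neurl1b were not called either. Neurl1a was under the level tested.

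The ligands that B cells themselves expressed were scarce. Dlk1, a non-canonical ligand, rose from 31.3, 45.0 and 22.9 normalized counts in WT to 155, 98.9 and 95.9 in KO (log2 fold change 1.80, SE 0.331, limma adjusted p = 0.012). Jag2 rose from 18.6, 13.8 and 14.5 to 26.1, 47.5 and 28.8 (log2 fold change 1.04, limma adjusted p = 0.099), a call kept in only 4 of 15 alternative analyses, with adjusted p of 0.060 to 0.430. Dll1 had 34.8, 46.7 and 35.2 in WT and 26.1, 25.2 and 35.6 in KO, with overlap, and Dll3 and Dlk2 were lower still. Dll4, Jag1, Notch3 and Notch4 were under the level tested.

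None of the 12 genes of receptor glycosylation and cleavage was called by limma, where 0 also had an adjusted p under 0.1. Adam17, a protease related to Adam10, had a log2 fold change of 0.02, and the gamma-secretase genes Psenen and Ncstn had 0.30 and 0.14. For Ncstn all KO libraries lay above all WT libraries, and for Adam17 and Psenen the groups overlapped. None of 15 corepressors tested was called either. All KO libraries lay above all WT libraries for 6 of these 15 (40%) and below for 1 (6.67%), beside 17.7% and 16.3% of all genes tested. Ncor1 and Spen were at -0.01 and -0.05, and Hdac1 at 0.36 (limma adjusted p = 0.087) passed the p threshold but not the fold threshold. Tle2, at 8.41 to 13.8 normalized counts in WT and 17.1 to 32.9 in KO (log2 fold change 1.09, limma adjusted p = 0.116), was called higher only without KO1, with the replicate block and without the intensity trend.

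Target genes outside the 10 went in both directions. Cr2, which encodes the complement receptor CD21, had 5189, 3382 and 3474 normalized counts in WT and 7031, 5425 and 9441 in KO (log2 fold change 0.85, SE 0.225, limma adjusted p = 0.044), a call lost without WT2, WT3 or KO3 and without the intensity trend in the fit. Its regulatory sequences also drive the Cre in both groups. Il2ra was at 0.48 (limma adjusted p = 0.055), with all KO libraries above all WT libraries. Myc was at -0.44 (limma adjusted p = 0.098), with overlapping libraries. Both were under 1.5-fold, and Myc was called lower without KO2. Hey1, Hey2, Heyl, Ptcra and Gata3 were under the level tested, with at most 8.22 normalized counts in any library.

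**Figure D4:**
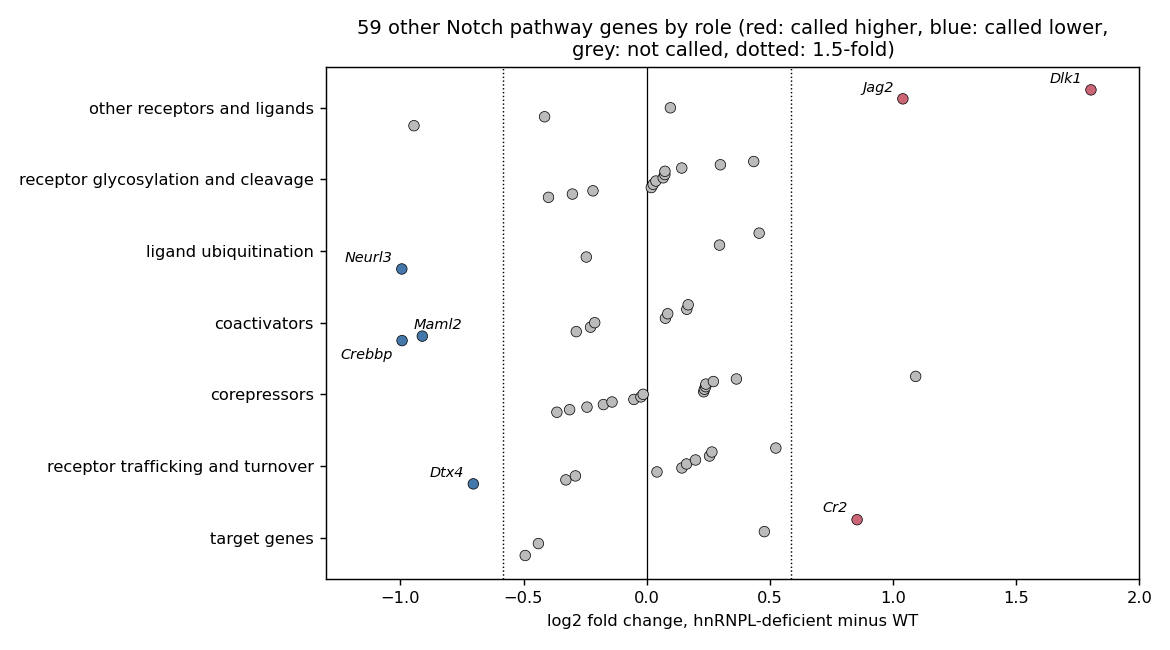
Log2 fold change (KO minus WT, horizontal axis) of the 59 other Notch pathway genes tested, 1 point a gene in rows by role; dotted lines mark 1.5-fold. The 7 called genes are named: Neurl3, Crebbp, Maml2 and Dtx4 lower, and Jag2, Dlk1 and Cr2 higher.

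Since Notch2 signalling and high Dtx1 are features of marginal zone B cells, markers of these cells were compared beside Dtx1. Of 7 markers, all tested, 3 were called higher and 0 lower, beside 7.28% and 4.08% of all genes tested. Cd1d1, an antigen-presenting molecule, rose from 52.2, 44.1 and 78.8 normalized counts to 209, 143 and 182 (log2 fold change 1.62, limma adjusted p = 0.0094), Cd36 rose by 0.65 (limma adjusted p = 0.040), and Cr2 rose as given above. The Cd36 call, like that of Cr2, was lost in those same fits.

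S1pr3, a sphingosine phosphate receptor, had 8779, 8820 and 8753 normalized counts in WT and 6562, 6134 and 6946 in KO (log2 fold change -0.43, limma adjusted p = 0.020), under 1.5-fold but with no overlap. Cd9, Mzb1 and Ackr3 had log2 fold changes of 0.03, -0.03 and 0.44 with overlapping libraries. Summed over the list, the markers had 18030 to 21753 normalized counts in WT and 20188 to 27501 in KO, overlapping ranges. By flow cytometry of spleen cells without culture, the study found a reduced frequency of marginal zone B cells in CD21-cre Hnrnpl F/F mice. In its mixed bone marrow chimeras, hnRNPL-deficient (GFP+) marginal zone cells were also underrepresented. In the libraries described here, whether the groups differed in their share of marginal zone cells was not tested.

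**Figure D5:**
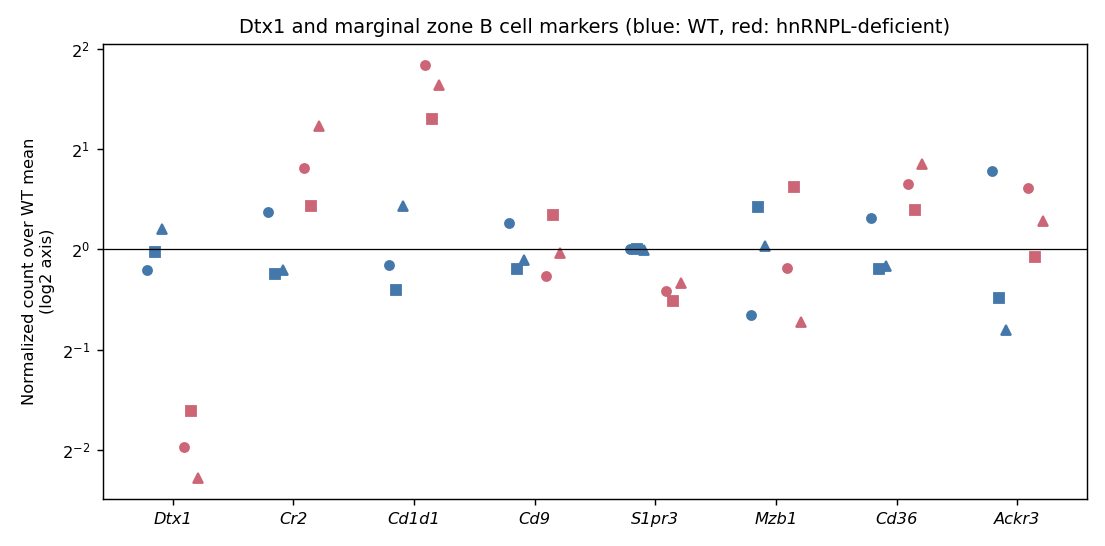
Normalized count of Dtx1 and of 7 marginal zone B cell markers in each library, divided by the gene's WT mean (log2 axis), WT in blue and hnRNPL-deficient in red. Dtx1 lay below the WT libraries in all 3 KO libraries, Cr2, Cd1d1 and Cd36 above them, and S1pr3 below.

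Markers of other cells were few. Of 8 T cell markers, 6 were under the level tested, Cd3e, Cd4 and Trbc2 were at 0 in all WT libraries, and the summed list, led by Thy1, was 158 to 216 normalized counts in WT and 155 to 390 in KO. NK cell markers summed to at most 4.11. Of 6 myeloid markers, Lyz2, Cd14 and Fcgr1 were at or near 0, and the summed list (260 to 331 in WT, 1239 to 1382 in KO) was nearly all Adgre1, which rose by 2.24 on the log2 scale (limma adjusted p = 0.00014). Of 4 plasma cell markers, led by Xbp1, Jchain alone was called lower (log2 fold change -2.31, limma adjusted p = 0.051; lost without WT1, WT2, KO2 or KO3), and the summed list was 14221 to 16488 in WT and 13373 to 16508 in KO.

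Other lists gave the following values. Of 4 follicular B cell markers, led by Fcer2a, Ccr7 was called higher (log2 fold change 0.96, limma adjusted p = 0.0012), Ighd was at -0.36 (limma adjusted p = 0.040; under 1.5-fold with no overlap), and the sum was 103303 to 119228 in WT and 90518 to 114759 in KO. Of 4 dendritic cell markers, led by Flt3, Xcr1 was called higher at 21.6 to 27.4 normalized counts in KO (lost without WT2, WT3 or KO2, with no filter and with DESeq2 on 5 libraries), Siglech was at 0 in every library, and the sum was 648 to 787 in WT and 637 to 685 in KO. Erythroid markers, led by Hbb-bs, summed to at most 27.3, and of the stromal and endothelial markers Col1a1 and Pdgfrb were at or near 0 while Pecam1 led a sum of 2644 to 2772 in WT and 3763 to 4478 in KO. Cdh5 of that list rose from 107, 118 and 127 normalized counts in WT to 268, 360 and 270 in KO (log2 fold change 1.33, limma adjusted p = 0.0049), and Pecam1 was at 0.53 (limma adjusted p = 0.019), under 1.5-fold with no overlap. The part of such cells in the values of the Notch genes was not tested.

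hnRNPL binds CA-rich RNA, so the letters CACACA were counted in the longest coding transcript of each gene in the annotation (introns were not searched). Dtx1 held 2 matches (0.496 per kb), Maml1 0.904 per kb, Notch2 0.762, Hes1 0.681, Adam10 0.435, Nrarp 0.387 and Notch1 0.316, and Lfng, Mfng and Rbpj held none. Over 11532 genes the median was 0.325 per kb, and 63.1% of the transcripts held at least 1 match. Of the genes called lower, Dtx1 thus held the letters and Lfng did not.

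The genes whose levels were most like Dtx1 over the 6 libraries, among the 13881 genes that averaged 50 normalized counts or more, were Irak4 (Pearson r 0.999), 4930590J08Rik (0.997), Nfix (0.996), Myo1g (0.993) and H2-Q6 (0.993). With 6 libraries in 2 groups these values largely reflect the group difference, and 325 genes had r of at least 0.95. They are given without a p-value, and H2-Q6 has close relatives that can share its reads. By the same measure, among the other 9 genes of the set, Lfng ranked 296, Nrarp 1608, Notch2 1795 and Mfng 2515, followed by Rbpj (3913), Adam10 (4311), Hes1 (7531), Notch1 (8430) and Maml1 (10955).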

How the data were processed

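RNA-seq of the 6 libraries (polyA, paired-end) was processed by the authors with fastp 0.23.1, STAR 2.7.9a on mm10 and strand-specific featureCounts, then DESeq2 1.38.2. The deposited values are DESeq2-normalized counts per gene, a signal scaled by size factors; the table also holds the authors' own comparison (mean, log2 fold change, standard error, statistic score, p-value and adjusted p-value), which was not used. Values were whole multiples of 1 read's worth in each library (100% of values, tolerance 0.1), so reads were recovered.

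Genes that averaged 10 normalized counts or more were tested on log2(normalized count + 1) with limma 3.58.1 (R 4.3.3, intensity trend, KO against WT, Benjamini-Hochberg over all genes). Fold changes are on that log2 scale, which understates those of low genes. Genes were called at an adjusted p of 0.1 and 1.5-fold. Alternatives were pseudocounts of 0.5 and 5, other filters and scalings, no trend, a replicate block, each library left out, stricter thresholds, and count tests (edgeR 4.0.16, DESeq2 1.42.0) on the recovered reads of 5 libraries, in which edgeR called 1072 genes higher and 707 lower; KO2, whose values are close to its reads, was not entered in those. The fitting code was tested on simulated data. Replicates of a group differed by more than sampling noise. Gene positions and exon lengths came from GENCODE vM21 (mm10), to which 17615 of 17640 genes tested matched; promoters came from RefSeq.

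The members and lists were chosen with earlier results of these data known. Named were all members; of the wider list every called gene and up to 3 of the highest others in each role; every marginal zone marker and the highest marker of other lists; Hnrnpl; the neighbours of Dtx1; and 5 genes most like it. One gene that the rule names is not reported here. Other genes named (Gm26542, further family members and markers) were chosen after their values were seen.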

Additional observations from a re-analysis of the deposited data

How the results depend on the processing

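Dtx1 and Lfng were called lower under all 16 alternatives at the same thresholds, with log2 fold changes of -2.13 to -1.78 and -0.85 to -0.61. Under the stricter thresholds Lfng was under 2-fold. Nrarp was negative in all 16 (-1.57 to -0.71) and called lower in 3: with a pseudocount of 5, with the replicate block and without KO1. Hes1 kept its sign in 13 of 16 (-0.07 to 0.49) and Notch1 in 15 of 16. Quantile normalization moved Notch2 to -0.07 and Rbpj to -0.04. Genes called were 2003, and 1333 to 1801 with a library left out, fewest without WT3; with an adjusted p of 0.05 and 2-fold they were 826. Of the other Notch pathway genes, 1 to 3 were called higher and 3 to 5 lower with a library left out, with 1 higher without WT2, WT3 or KO3; under the stricter thresholds limma called 1 higher (Dlk1) and 0 lower, while 20 of the 59 had an unadjusted p under 0.05 (33.9%, beside 27.4% of all genes tested). edgeR and DESeq2, which were run without KO2, each called 5 of them lower (Myc added). limma without KO2 also called 5 lower, with Myc added. Same-numbered WT and KO libraries had correlated deviations of 0.43, 0.32 and 0.066, and WT3 correlated better with KO2 (0.31) than with KO3. The labels state no pairing, and the main fit did not pair the samples by number. A figure legend of the study that covers RNA-seq counts names more than 1 experiment, without saying which libraries belonged to which. The part of such a batch in the values was not tested. The replicate block gave 2773 genes called (1755 higher, 1018 lower). Of the other Notch pathway genes it called 4 higher (Tle2 added) and 4 lower. Precision is limited by 3 libraries a group and, for Nrarp and Hes1, by few reads.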
